A study of Homo sapiens with 6 samples.

Results

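The genes described here are TNF, the cytokine tumour necrosis factor, together with further ligands of its superfamily, a soluble decoy receptor, and receptors listed as signalling through the adaptor TRAF2. A list of 10 symbols was matched to the gene symbols of an mRNA sequencing table of 23002 genes. Of the 10 genes, 8 had a row, namely TNF, LTB, TNFSF4, TNFRSF12A, TNFRSF9, LTBR, TNFRSF21 and TNFRSF11B, while CD40 and TNFSF9 were not analysed here. The cells were U251, an established human glioblastoma line, stably transduced with lentivirus carrying either a non-targeting short hairpin RNA (sh-NC, 3 samples) or one against TRAF2 (sh-TRAF2, 3 samples). Both groups therefore carry a lentiviral insertion and had been selected with puromycin, and the labels name no cytokine added to either. The labels number the 3 samples of a group as replicates without saying whether they came from separate transductions or cultures. The p-values below therefore measure the spread between samples of what may be the same stable line.

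TNF ligands are trimers, made mostly as membrane proteins, that draw their receptors together on the cell surface. Receptors without a death domain, such as LTBR, TNFRSF9 and TNFRSF12A, bind TRAF proteins directly, whereas the main TNF receptor, TNFRSF1A, reaches TRAF2 through the adaptor TRADD. TRAF2 brings the ubiquitin ligases BIRC2 and BIRC3 to these receptors, which promotes the canonical NF-kappaB and JNK pathways. In resting cells TRAF2 and TRAF3 hold the kinase MAP3K14 (NIK) at a low level, so that TRAF2 also restrains the non-canonical NF-kappaB pathway. TNF, TNFRSF9 and LTB are themselves known NF-kappaB target genes in other cell types.

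TRAF2, the targeted gene, was read first as a check of the labels. Its level in FPKM (fragments per kilobase of transcript, scaled to the depth of each library, so a level corrected for transcript length and depth) was 15.1, 18.4 and 15.3 in the sh-NC samples and 3.26, 3.22 and 3.33 in the sh-TRAF2 samples. The groups did not overlap, and mean FPKM fell by 79.9%, which left a measurable residue in every knockdown sample. On the log2 scale the change was -2.27 (95% interval -2.46 to -2.09, limma adjusted p = 1.16e-06, n = 3 per group).

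The study lists 2 hairpin targets for TRAF2, and which of them was used for sequencing is not given in the sources used here. They are shown because a stretch shared with a transcript of another gene would bear on how that gene's values are read.
sh-TRAF2#1: cccttgcagattccacgccat
sh-TRAF2#2: ctggaccaagacaagattgaa
Matched to GRCh38 with the GENCODE 29 transcripts, target 1 lies on the plus strand at chr9:136916579-136916599, in exon 7 of 11 of TRAF2, and target 2 at chr9:136920480-136920500, in exon 8, both within coding sequence. The longest run of bases that either target shared with a transcript of the 8 genes, read in the sense direction, was 10 bases, between target 2 and TNFRSF11B, and then 9 bases, between target 1 and TNFRSF21. For the other pairs it was 6 to 8 bases of the 21. Where a run falls in the target was not examined, and runs shared with genes outside the set were not computed. The lengths therefore do not show whether a hairpin acted on any of these genes.

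The 250 bases before the transcription start that RefSeq gives are shown for TNF and TNFRSF9, the genes of the set with the smallest adjusted p-values and with opposite directions. Sequences come from the RefSeq promoter table for GRCh38.p14, run 5′ to 3′ on the gene's own strand, and end at the base before the start. For TNFRSF9, and also for LTBR, TNFSF4 and LTB, that start lies inside the gene span of GENCODE 29 used here, so the window precedes a different start from the one that bounds the gene. Capitals mark matches to the motifs searched, namely the NF-kappaB consensus GGGRNNYYCC, the AP-1 motif TGANTCA and the TATA motif TATAAA, each searched on both strands. In these strings R is A or G, Y is C or T and N is any base. Only exact matches were counted, so a window without a match may still hold sites close to a motif.
TNF promoter: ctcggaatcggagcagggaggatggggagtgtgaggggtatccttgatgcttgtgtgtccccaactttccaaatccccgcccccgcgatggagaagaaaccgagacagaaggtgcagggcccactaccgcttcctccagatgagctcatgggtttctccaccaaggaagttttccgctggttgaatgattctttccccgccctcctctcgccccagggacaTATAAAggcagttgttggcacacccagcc
TNFRSF9 promoter: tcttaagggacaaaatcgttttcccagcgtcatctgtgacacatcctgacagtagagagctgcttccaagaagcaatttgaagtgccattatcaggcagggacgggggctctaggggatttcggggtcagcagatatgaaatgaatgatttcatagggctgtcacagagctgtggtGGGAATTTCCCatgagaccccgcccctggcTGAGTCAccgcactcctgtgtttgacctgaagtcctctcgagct
The TNF window, chr6:31575315-31575564 on the plus strand, held TATAAA from 29 to 24 bases before the start and no exact match to the other motifs. The TNFRSF9 window, chr1:7940840-7941089 on the minus strand, held 2 overlapping NF-kappaB matches on opposite strands, together covering 74 to 64 bases before the start, and an AP-1 match, TGAGTCA, from 44 to 38 bases before it. Of 35116 RefSeq windows of this length, 9.96% held the NF-kappaB consensus, 6.57% the AP-1 motif and 10.7% TATAAA on either strand. Of the other 4 genes with a window examined here, LTB held 1 NF-kappaB match, GGAAAGTCCC, from 86 to 77 bases before the start, and LTBR, TNFRSF21 and TNFSF4 held no match to the 3 motifs. A match describes letters only, and the data contain no measurement of factor binding.

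To ask how the expression of these ligands and receptors differed after knockdown of TRAF2, sh-TRAF2 was compared with sh-NC. This was done in a limma fit over all 11870 genes with a mean of at least 0.5 FPKM. Of the 8 genes, 7 were tested and LTB fell under the filter. At an adjusted p under 0.05, TNF and TNFSF4 rose, TNFRSF9 and TNFRSF11B fell, and LTBR, TNFRSF12A and TNFRSF21 did not pass. These are 2 genes higher and 2 lower of 7, beside 23.7% of all tested genes higher and 20.9% lower by the same rule. At the thresholds of the study, which also ask for a log2 fold change beyond 1 in either direction, 0 of the 7 were called by limma and 0 by limma-voom on recovered reads, since their log2 fold changes ran from -0.52 to 0.87 in the limma fit, whereas 0.986% of all tested genes were called higher and 0.733% lower. The values of the 2 groups did not overlap for 4 of the 7 genes, beside 55.5% of all tested genes. The median log2 fold change was -0.02 over the 7 genes and 0.02 over all tested genes. The counts for the set thus stood near the background of a comparison in which many genes moved by small amounts, and what follows describes the genes individually.

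**Figure D1:**
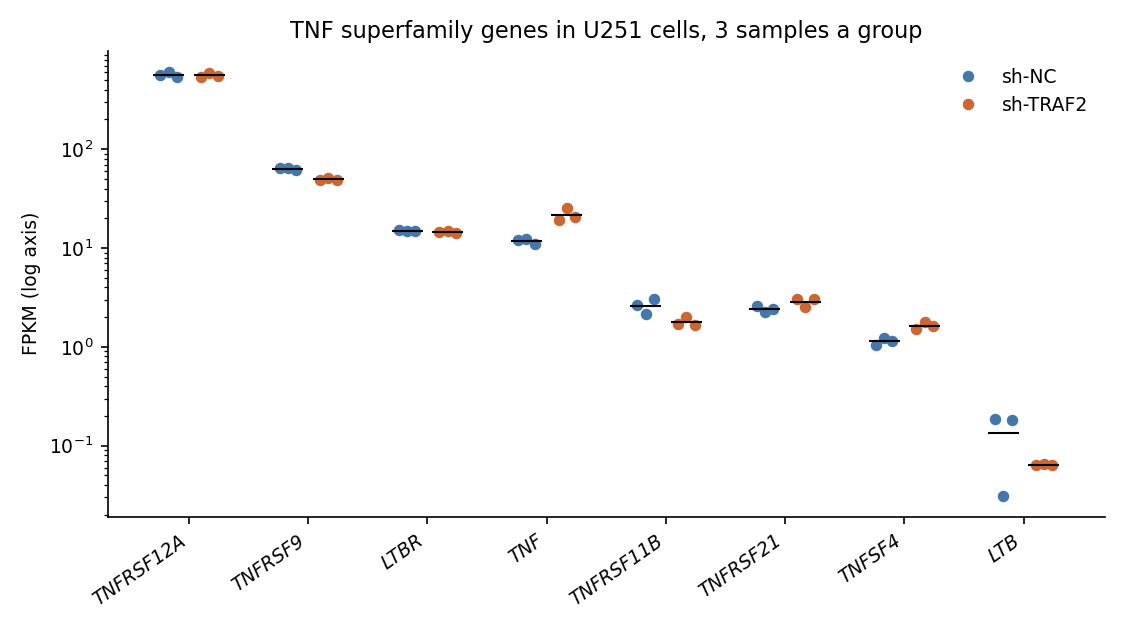
FPKM of the 8 genes (log axis) in each of the 3 sh-NC and 3 sh-TRAF2 samples of U251 cells, with points for samples and bars for group means. Levels run from 569.8 FPKM for TNFRSF12A to 0.133 FPKM for LTB in the sh-NC means, and the sh-TRAF2 points lie wholly above sh-NC for TNF and TNFSF4 and wholly below it for TNFRSF9 and TNFRSF11B.

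Among the ligands of the set, TNF moved most. TNF is the founding cytokine of the family, made as a membrane protein and released by the protease ADAM17, and it signals through TNFRSF1A on most cells. TNFRSF1B, the other main TNF receptor named by the study, was not analysed here. The level of TNF was 12.1, 12.3 and 11 FPKM in the sh-NC samples and 19.3, 25.3 and 20.6 FPKM in the sh-TRAF2 samples. Every knockdown sample lay above every control sample, and sh-TRAF2 replicate 2 was the highest. The mean went from 11.8 ± 0.709 to 21.7 ± 3.15 FPKM (SD, n = 3 each), a ratio of 1.84. This gave a log2 fold change of 0.87 (95% interval 0.65 to 1.09, limma adjusted p = 0.000226), and its interval reaches past the fold threshold of 1 that the estimate itself did not. The values rest on 684 to 737 reads a sample in sh-NC and 1129 to 1457 in sh-TRAF2, as recovered from the steps of the FPKM values. By the size of its log2 fold change, TNF stood at position 359 of the 11870 tested genes.

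TNFSF4 encodes OX40L, the ligand of the T-cell costimulatory receptor TNFRSF4 (OX40). It was measured at 1.04, 1.24 and 1.14 FPKM in sh-NC and at 1.51, 1.78 and 1.62 FPKM in sh-TRAF2. All 3 knockdown samples again lay above all 3 controls. Their log2 fold change was 0.49 (95% interval 0.23 to 0.76, limma adjusted p = 0.00922), with a ratio of means of 1.44, and it came to 0.30 when 1 in place of 0.1 was added to FPKM before taking logs. Although its level in FPKM is low, each sample held 479 to 795 reads of it. Its receptor TNFRSF4 had 0 to 4 reads a sample across both groups, so a level of the receptor could not be compared at this depth.

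LTB encodes lymphotoxin beta, which joins with lymphotoxin alpha (LTA) in the membrane trimer that engages LTBR. Its level was 0.188, 0.0313 and 0.181 FPKM in sh-NC and 0.0643, 0.0652 and 0.0638 FPKM in sh-TRAF2. These values stand for 6, 1 and 6 reads against 2, 2 and 2 reads, and the groups overlapped. Fitted without the filter on low values, its log2 fold change was -0.42 (95% interval -1.16 to 0.33, limma adjusted p = 0.455), so a difference was not detectable at this depth. LTA was as sparse, with 8, 4 and 6 reads in sh-NC and 11, 11 and 2 in sh-TRAF2. TNF, LTA and LTB are neighbours on chromosome 6: TNF spans chr6:31575567-31578336 on the plus strand, LTA ends 1242 bases before it, and LTB, on the minus strand at chr6:31580525-31582522, begins 2188 bases after it. The rise in TNF was thus measured beside neighbours that held at most 11 reads in any sample.

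Among the receptors, TNFRSF9 fell. It encodes 4-1BB (CD137), a costimulatory receptor best known on activated T cells, whose tail binds TRAF1 and TRAF2. Its level was 64.8, 64.3 and 61.8 FPKM in sh-NC and 48.9, 51.0 and 48.5 FPKM in sh-TRAF2. The groups were well apart, with the highest knockdown sample at 51.0 FPKM and the lowest control at 61.8. The log2 fold change was -0.36 (95% interval -0.45 to -0.28, limma adjusted p = 0.000166), and the mean fell by 22.3%. It rests on 11692 to 15857 reads a sample. TNFRSF9 lies on the minus strand at chr1:7915894-7943165, and its ligand TNFSF9 was not analysed here.

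TNFRSF11B encodes osteoprotegerin, a secreted receptor that has no membrane anchor and binds TNFSF11 (RANKL) and TNFSF10 (TRAIL) as a decoy. It was measured at 2.66, 2.17 and 3.03 FPKM in sh-NC and at 1.71, 2.02 and 1.65 FPKM in sh-TRAF2. The groups were separated by a narrow gap, from 2.02 to 2.17 FPKM. The log2 fold change was -0.52 (95% interval -0.82 to -0.21, limma adjusted p = 0.0144), from 121 to 235 reads a sample. Without the filter on low values its limma adjusted p was 0.053, above the threshold of 0.05. Of its ligands, TNFSF11 had 0 or 1 read in every sample. TNFSF10, which triggers the death receptor TNFRSF10B, rose: it stood at 2.86, 1.97 and 3.70 FPKM in sh-NC and 3.74, 4.87 and 7.25 FPKM in sh-TRAF2 (log2 fold change 0.86, 95% interval 0.26 to 1.47, limma adjusted p = 0.0281). That call too was lost without the filter, with a limma adjusted p of 0.0965.

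TNFRSF21 encodes death receptor 6, a death-domain receptor known for roles in neurons and lymphocytes. Its level was 2.60, 2.25 and 2.41 FPKM in sh-NC and 3.02, 2.55 and 3.04 FPKM in sh-TRAF2. Samples 1 and 3 of sh-TRAF2 lay above all controls, whereas sh-TRAF2 replicate 2, at 2.55 FPKM, fell inside the control range. Its log2 fold change was 0.23 (95% interval 0.01 to 0.45, limma adjusted p = 0.0788), from 290 to 383 reads a sample. Without sh-TRAF2 replicate 2 the log2 fold change was 0.31 and the limma adjusted p was 0.0357, so that sample decides on which side of the threshold the gene falls.

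LTBR, the lymphotoxin beta receptor, is a main entry to the non-canonical NF-kappaB pathway. It was measured at 15.1, 14.9 and 15.0 FPKM in sh-NC and at 14.4, 14.9 and 14.3 FPKM in sh-TRAF2, and the groups met at 14.9 FPKM. The log2 fold change was -0.05 (95% interval -0.14 to 0.05, limma adjusted p = 0.398). On the ratio scale the interval ran from 0.906 to 1.04 of the control level. LTBR spans chr12:6375045-6391571 and shares 2686 bases with the antisense gene SCNN1A, which was at 0.0594 to 0.299 FPKM.

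TNFRSF12A encodes Fn14, the receptor of TNFSF12 (TWEAK), a small receptor that many solid tumour lines carry in quantity. Its level was 569.6, 605.5 and 534.2 FPKM in sh-NC and 539.3, 594.1 and 550.1 FPKM in sh-TRAF2. The groups overlapped along most of their range. The log2 fold change was -0.02 (95% interval -0.14 to 0.10, limma adjusted p = 0.761), or 0.907 to 1.07 of the control level on the ratio scale. With 18341 to 21168 reads a sample, counting error was small beside the spread between samples. Its ligand TNFSF12 was at 4.22, 3.47 and 2.48 FPKM in sh-NC and 2.84, 2.75 and 2.90 FPKM in sh-TRAF2 (log2 fold change -0.22, 95% interval -0.60 to 0.15, limma adjusted p = 0.3). TNFSF12 adjoins TNFSF13, with which it forms readthrough transcripts, so the split of reads between that pair is uncertain. TNFRSF12A spans chr16:3018445-3022383 and shares 1627 bases with the antisense gene CLDN6, which was at 0.0617 to 0.299 FPKM. Whether reads were counted by strand is not given in the sources used here.

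Because FPKM is a level per transcript length, the genes can be listed by FPKM within each group. The gene lengths behind these values are not given in the sources used here, and the order between genes depends on them. In the sh-NC means TNFRSF12A led at 569.8 FPKM, at percentile 99.4 of the tested genes, followed by TNFRSF9 at 63.7, LTBR at 15.0, TNF at 11.8, TNFRSF11B at 2.62, TNFRSF21 at 2.42, TNFSF4 at 1.14 and LTB at 0.133 FPKM. The ranges of neighbours in that order did not meet, except that TNFRSF11B and TNFRSF21 overlapped. In the sh-TRAF2 means the order became TNFRSF12A at 561.2, TNFRSF9 at 49.5, TNF at 21.7, LTBR at 14.5, TNFRSF21 at 2.87, TNFRSF11B at 1.79, TNFSF4 at 1.64 and LTB at 0.0644 FPKM. There, TNFRSF11B and TNFSF4 were the neighbours that overlapped.

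TNF and LTBR thus exchanged places in the order by FPKM. The ratio of TNF to LTBR was 0.8, 0.824 and 0.732 in the sh-NC samples and 1.34, 1.70 and 1.44 in the sh-TRAF2 samples. It was below 1 in every control and above 1 in every knockdown sample. The side of 1 on which it falls depends on the gene lengths used, whereas its change between the groups does not. The pair was picked for its change of order, so the ratio is given as a description with no test. The ratio of TNFRSF21 to TNFRSF11B went from 0.976, 1.04 and 0.795 to 1.77, 1.26 and 1.84, likewise as a description. The ratio of TNF to its receptor TNFRSF1A was 0.468, 0.487 and 0.472 in sh-NC and 0.774, 0.983 and 0.813 in sh-TRAF2. TNFRSF1A was at 23.2 to 25.8 FPKM in sh-NC and 25.0 to 25.7 FPKM in sh-TRAF2 (log2 fold change 0.03, 95% interval -0.08 to 0.15, limma adjusted p = 0.59).

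**Figure D2:**
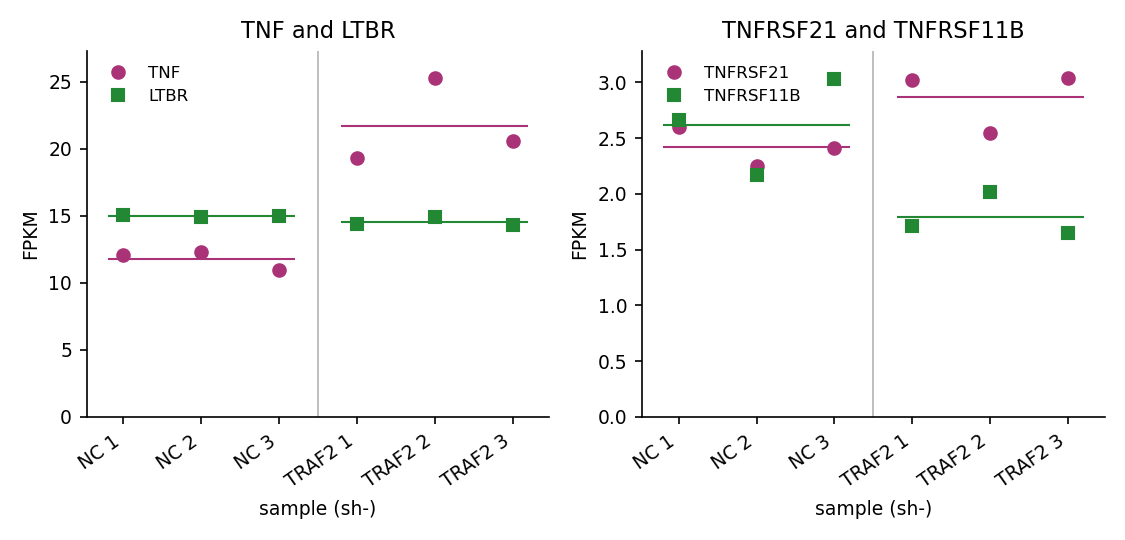
FPKM of TNF beside LTBR (left) and of TNFRSF21 beside TNFRSF11B (right) in each sample, on axes that start at 0, with lines for the group means. TNF lies below LTBR in the 3 sh-NC samples and above it in the 3 sh-TRAF2 samples, and TNFRSF21 lies above TNFRSF11B in the 3 sh-TRAF2 samples while the pair overlaps in sh-NC.

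The rest of the superfamily gave the setting for these genes. Of 37 further ligands and receptors, 32 had a row and 11 passed the filter, of which 3 rose, 2 fell and 6 did not pass, with a median log2 fold change of -0.09. Taking the members and the others together, 4 of 7 tested ligands rose and 3 did not pass, and of 11 tested receptors 1 rose, 4 fell and 6 did not pass. Over all tested genes the shares were 23.7% higher and 20.9% lower, and the split between ligands and receptors was not itself tested. Without the filter on low values 3 ligands rose, as TNFSF10 no longer passed, and 1 receptor rose and 3 fell, as TNFRSF11B no longer passed. CD70, the ligand of CD27, was at 59.3, 56.1 and 55.3 FPKM in sh-NC and 73.8, 77.0 and 76.9 FPKM in sh-TRAF2 (log2 fold change 0.42, limma adjusted p = 0.000114). EDA2R, a receptor for an ectodysplasin isoform, had the largest fall among the tested superfamily genes, from 3.48, 3.47 and 3.58 to 2.13, 2.10 and 1.84 FPKM (log2 fold change -0.77, limma adjusted p = 0.000179). RELT was the receptor that rose, from 4.52, 4.72 and 4.15 to 7.22, 6.41 and 6.84 FPKM (log2 fold change 0.60, limma adjusted p = 0.000314). TNFRSF10B, a death receptor for TNFSF10 measured at 445.8 to 453.1 FPKM in sh-NC and 385.2 to 400.1 FPKM in sh-TRAF2, fell by 0.20 on the log2 scale (limma adjusted p = 0.000649).

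**Figure D3:**
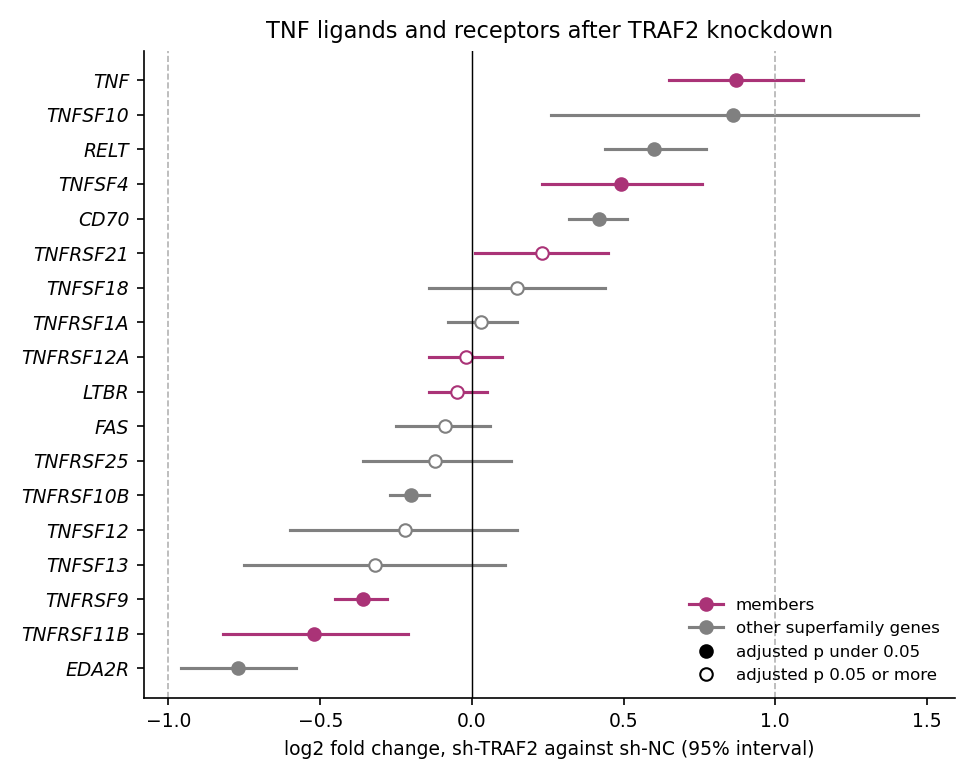
log2 fold change of sh-TRAF2 against sh-NC with its 95% interval for the 18 tested ligands and receptors of the TNF superfamily, with the 7 genes of the set in purple and the other 11 in grey, filled where the adjusted p was under 0.05. TNF stands highest at 0.87 and EDA2R lowest at -0.77, and no estimate passes the dashed lines at -1 and 1.

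The proteins that gather with TRAF2 at these receptors moved in both directions. Of 12 adaptors and ubiquitin ligases tested, 4 rose, 4 fell and 4 did not pass, with a median log2 fold change of 0.04, beside 23.7% of all tested genes higher and 20.9% lower. Without the filter on low values 3 fell, as RIPK1 no longer passed. FADD, the adaptor that links death receptors to caspase-8, rose from 13.1, 14 and 13.2 to 28.9, 30.3 and 27.2 FPKM, and was the gene of this list past the fold threshold (log2 fold change 1.10, limma adjusted p = 4.32e-06). BIRC2 rose (0.35, limma adjusted p = 0.000123), as did TANK, a TRAF-binding regulator (0.50, limma adjusted p = 0.00015). BIRC3, the paralogue of BIRC2 and an NF-kappaB target, was among those that fell, from 72.1, 77.0 and 64.8 to 50.7, 54.5 and 49.3 FPKM (log2 fold change -0.47, limma adjusted p = 0.000754). TRAF1, which pairs with TRAF2 at TNFRSF9, was at 146.6 to 176.1 FPKM in sh-NC and 180.2 to 201.4 FPKM in sh-TRAF2 (log2 fold change 0.18, 95% interval 0.01 to 0.35, limma adjusted p = 0.0794).

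The amount of TNF mRNA and the release of TNF protein depend on genes of a further list, those of TNF shedding and of AU-rich mRNA turnover. Of 13 tested, 1 rose, 6 fell and 6 did not pass, with a median log2 fold change of -0.21, again beside 23.7% higher and 20.9% lower over all tested genes. ADAM17, the protease that releases TNF from the membrane, fell from 31.7, 28.3 and 33.8 to 24.6, 22.6 and 24.2 FPKM (log2 fold change -0.39, limma adjusted p = 0.00217). ZFP36L1, a protein that binds AU-rich elements and promotes mRNA decay, fell from 92.6, 98.2 and 89.1 to 51.5, 46.3 and 49.1 FPKM (log2 fold change -0.93, limma adjusted p = 8.18e-06). Its relative ZFP36, the best known of these proteins for TNF mRNA, was at 13.5 to 15.7 FPKM in sh-NC and 12.4 to 14.2 FPKM in sh-TRAF2 (log2 fold change -0.14, limma adjusted p = 0.148). TIA1, a silencer of TNF translation, fell by 0.35 on the log2 scale (limma adjusted p = 0.000716), and KHSRP, another AU-rich element binding protein, rose by 0.35 (limma adjusted p = 6.86e-05). Protein release and mRNA half-life were not measured in these samples, and the part of these genes in the level of TNF was not tested.

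Known NF-kappaB target genes were read beside TNF and TNFRSF9 because those genes moved in opposite directions. Of 32 listed targets, which leave out the genes of the set, 30 were tested, 16 rose, 3 fell and 11 did not pass, with a median log2 fold change of 0.22, beside 23.7% of all tested genes higher and 20.9% lower. Without the filter on low values 12 rose and 3 fell, as ICAM1, CXCL8, TNIP1 and CFLAR no longer passed. Some of the listed targets were also counted in a list above, so the counts of the lists are not separate. IL1B, the cytokine interleukin-1 beta, rose from 9.06, 7.54 and 6.80 to 26.8, 25.5 and 24.7 FPKM (log2 fold change 1.71, limma adjusted p = 8.18e-06). The chemokine CCL20 rose from 22.1, 20.3 and 20.9 to 44.1, 44.0 and 44.2 FPKM (log2 fold change 1.06, limma adjusted p = 2.23e-06). CCL2, a monocyte chemokine, fell from 130.2, 136.9 and 126.8 to 49.1, 62.1 and 58.7 FPKM (log2 fold change -1.22, limma adjusted p = 1.86e-05). The feedback inhibitor gene NFKBIA was at 130.9 to 150.1 FPKM in sh-NC and 131.1 to 139.3 FPKM in sh-TRAF2 (log2 fold change -0.08, 95% interval -0.20 to 0.04, limma adjusted p = 0.258). NFKB2, the precursor subunit of the non-canonical pathway, was among the genes that rose (0.38, limma adjusted p = 0.000467). The mRNA of MAP3K14, the kinase of that pathway and a gene of the adaptor list, fell from 13.4, 13.6 and 11.9 to 9.66, 11.4 and 10.3 FPKM. Its log2 fold change was -0.31 (limma adjusted p = 0.0119). Neither MAP3K14 protein nor activity of the pathway was measured in these samples.

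Several of these genes are best known from lymphocytes, so markers of other cells were read in the same samples. Of 9 immune cell markers 4 had a row. PTPRC, which marks white blood cells, had 0 or 1 read in every sample, and the summed level of the 4 was 16.4 to 17.3 FPKM in sh-NC and 15.5 to 17.9 FPKM in sh-TRAF2, nearly all of it CD68, a lysosomal protein that many cell lines also express. The 3 endothelial markers summed to 0.0649 to 0.0983 FPKM in sh-NC and 0.0445 to 0.0738 FPKM in sh-TRAF2. Of 8 glial and glioma line markers 7 had a row, their sum was 1437.2 to 1514.7 FPKM in sh-NC and 1791.0 to 1840.3 FPKM in sh-TRAF2, and VIM, vimentin, made up most of it. Of these markers 6 were tested, 4 rose (GFAP, NES, SLC1A3 and VIM) and 2 did not pass, with a median log2 fold change of 0.41. Over all tested genes 23.7% were higher and 20.9% lower, with a median of 0.02. The markers that did not pass were SOX2 (0.12, limma adjusted p = 0.0754) and CD44 (-0.07, limma adjusted p = 0.0732). Without the filter on low values 3 markers rose, as GFAP no longer passed. NES, nestin, went from 5.35 to 11.7 FPKM in the means (log2 fold change 1.12, limma adjusted p = 1.91e-05). SLC1A3, an astrocyte glutamate transporter, went from 11.2 to 15.5 FPKM in the means (log2 fold change 0.47, limma adjusted p = 0.00282). The astrocyte marker GFAP was at 0.402, 0.334 and 0.666 FPKM in sh-NC and 0.561, 1.62 and 1.36 FPKM in sh-TRAF2 (log2 fold change 1.11, limma adjusted p = 0.0382, but 0.12 without the filter on low values). S100B was above 0 in sh-TRAF2 replicate 2 only, at 0.0228 FPKM. The part of these marker changes in the changes of TNF and its receptors was not tested. In bulk RNA, fewer expressing cells and less RNA per cell cannot be told apart.

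The 4 genes that passed kept their direction under every setting of the fit that was tried. Over 15 alternatives the log2 fold change of TNF stayed between 0.76 and 0.95, that of TNFSF4 between 0.30 and 0.55, that of TNFRSF9 between -0.42 and -0.35 and that of TNFRSF11B between -0.64 and -0.37. A limma-voom fit, a weighted linear model, on the recovered reads gave 0.88 for TNF (95% interval 0.66 to 1.09, limma-voom adjusted p = 1.59e-05). It gave -0.36 for TNFRSF9 (limma-voom adjusted p = 5.24e-06). Those reads come from the same FPKM values and are not a separate measurement.

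**Figure D4:**
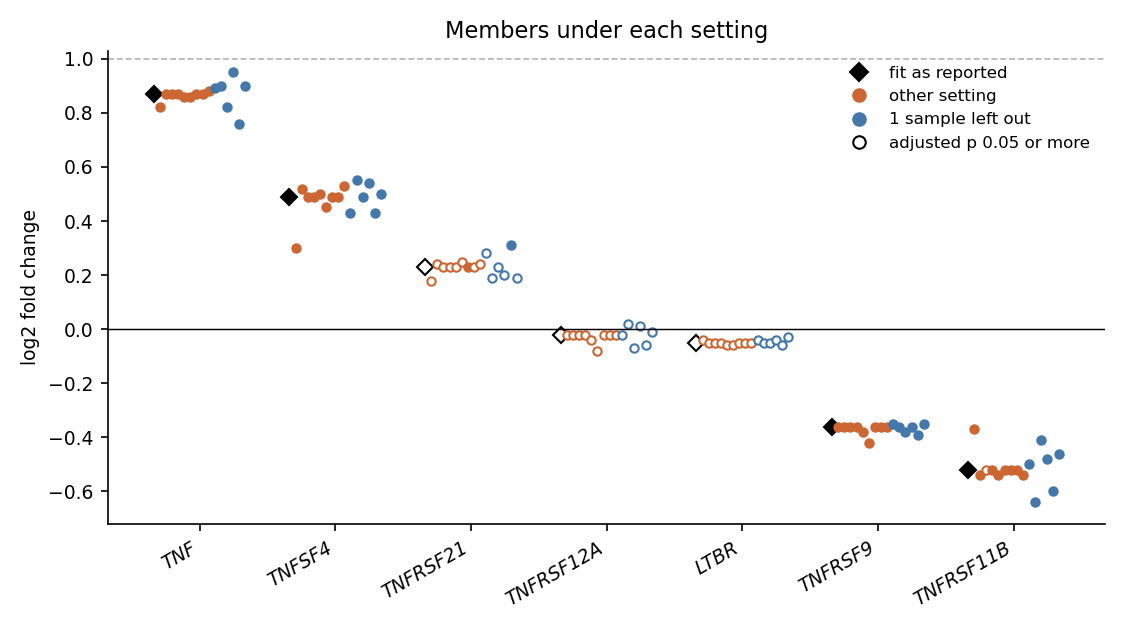
log2 fold change of the 7 tested genes under the fit as reported (black diamond), 9 other settings (orange) and with each of the 6 samples left out in turn (blue), open where the adjusted p was 0.05 or more. TNF and TNFSF4 stay above 0 and TNFRSF9 and TNFRSF11B below it in all 15 alternatives, TNF never reaches the dashed line at 1, and TNFRSF12A crosses 0.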

How the data were processed

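Messenger RNA was sequenced in U251 cells carrying sh-NC (3 samples) or sh-TRAF2 (3 samples), grouped by their labels. OE Biotech prepared, sequenced and processed the libraries, and FPKM, 1 column for each sample, is the unit of the file that the authors deposited. The submitters' processing notes name HISAT2, HTSeq, DESeq2 and R 3.2.0. The genome build and annotation are not given in the sources used here.

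From the deposited FPKM, log2(FPKM + 0.1) was compared in genes with a mean of at least 0.5 FPKM with limma 3.58.1 in R 4.3.3 (lmFit, eBayes with a trend, two-sided, Benjamini-Hochberg adjustment over 11870 genes). Genes were called at an adjusted p under 0.05, with or without a log2 fold change beyond 1. Fold changes are on the log2(FPKM + 0.1) scale, which understates those of low genes. FPKM values in a gene are whole multiples of 1 read, so reads were recovered (tolerance 0.001 of a read, a solution found for all 23002 genes, though 2643 of them had reads in 1 sample only and so were set to 1 read with nothing to check it) and totalled 33999558 to 36823562 a sample. The smallest whole numbers that fit were taken, so a gene whose counts all share a factor would be understated, and limma-voom was run on them where a gene averaged 10 reads or more. Fits were tested on simulated data in which every planted change lay beyond the fold threshold. The simulation therefore does not cover changes as small as those of the genes of the set. Replicates of a group correlated at 0.993 to 0.994 on the log2 scale and differed by more than sampling noise, so none was counted as a repeat.

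The genes and lists were chosen with earlier results of these data known. All genes of the set are named with every sample's value. Of each pathway list, genes past the fold threshold and the 3 with the smallest adjusted p are named, and further receptors, partners, adaptors, TNF regulators and marker genes were named as context after their values were seen. The sequence and position of TNFRSF11B are not reported here.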

Additional observations from a re-analysis of the deposited data

How the results depend on the processing

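Over 7 genes and 15 alternatives, 100 of 105 comparisons kept the direction and the side of the adjusted p threshold, 1 lost the call, 2 gained it and 2 changed sign. Without a filter on low values, 1 gene of the set was lower in place of 2, because TNFRSF11B had an adjusted p of 0.053 with 23002 genes tested. The pathway lists were counted again without that filter after seeing the data, and 7 further calls were lost, those of TNFSF10, RIPK1, GFAP and 4 NF-kappaB targets. TNFRSF21 passed with a replicate block (0.23, adjusted p = 0.0482, limma) and without sh-TRAF2 replicate 2 (0.31, adjusted p = 0.0357, limma). TNFRSF12A, not called in any setting, was at 0.02 without sh-NC replicate 2 and 0.01 without sh-TRAF2 replicate 1, and ranged from -0.07 to 0.02 over the samples left out. With samples left out, TNF ranged from 0.76 to 0.95 and TRAF2 from -2.33 to -2.18, and 0 genes of the set passed the fold threshold in any alternative. Samples sharing a replicate number deviated from their group means with correlations of -0.081, 0.072 and 0.073, so the numbers were not taken to pair the samples, and the replicate block changed no other call in the set.

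Over all genes, 117 were called higher and 87 lower at the fold threshold, against 46 and 41 with a pseudocount of 1 and 239 and 174 with limma-voom on recovered reads. At an adjusted p under 0.05, higher against lower was 2818 to 2479 as reported and 2541 to 2725 after quantile normalization. The pseudocount of 1 lowered TNFSF4 to 0.30. Depth limits LTB, LTA, TNFRSF4 and TNFSF11, whose few reads allow no comparison.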
